A study of Homo sapiens with 9 samples.

Results

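Mitochondrial ribosomal proteins are the proteins of the ribosome that works inside mitochondria, and most of their genes carry symbols that start with MRPL (large subunit) or MRPS (small subunit). The genes described here are the protein-coding genes of the GENCODE 29 annotation whose symbol starts with MRPL or MRPS. There were 78 of them, 49 MRPL and 29 MRPS, among 58735 genes in the count table, and all 78 were among the 18088 genes with enough counts to be tested. The symbol does not always give the subunit: the products of MRPS30 and MRPS18A sit in the large subunit, and the product of MRPS36 is now assigned to the oxoglutarate dehydrogenase complex.

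The libraries came from HEK293T, an established line derived from human embryonic kidney that expresses the large T antigen of SV40. All groups received siRNA at 10 nM by lipid transfection and were taken after 36 h: a negative control siRNA (Control), one against PHF12 (PHF12 knockdown) or one against SUDS3 (SUDS3 knockdown). From each group 3 poly-A selected, stranded libraries were sequenced. PHF12 and SUDS3 are subunits of SIN3 corepressor complexes, which carry histone deacetylases. The labels name 1 siRNA per target, so an effect of that siRNA on other transcripts cannot be told apart from the loss of its target, and they do not say whether the 3 libraries of a group came from separate cultures, so the p-values measure only the spread between these libraries.

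Library totals ran from 37962926 to 50946148 counts, and 96.1% of the counts above 0 were multiples of 4. PHF12 stood at 50.3, 50.5 and 48.8 CPM (the count scaled to the size of its library) in the Control libraries and at 27.9, 24.5 and 28.3 in the PHF12 knockdown (log2 fold change -0.89 ± 0.06 (SE), adjusted p = 1.88e-14). SUDS3 stood at 107, 114 and 112 CPM in Control and at 21.1, 22.3 and 22.9 in the SUDS3 knockdown (log2 fold change -2.33 ± 0.05 (SE), adjusted p = 1.82e-28). Each target moved in the other knockdown too, and SUDS3 was at 81.4, 80.1 and 81.5 CPM in the PHF12 knockdown (log2 fold change -0.46 ± 0.05 (SE), adjusted p = 6.83e-10), and PHF12 at 59.5, 61.98 and 62.9 in the SUDS3 knockdown (log2 fold change 0.30 ± 0.06 (SE), adjusted p = 7.19e-05). The 8 genes listed as expressed in HEK293T summed to 46287 to 65551 counts per library, whereas the blood, liver, fibroblast and endothelial markers summed to at most 52 counts each, with PTPRC, CD3E and HBB at 0 in all libraries.

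The mitochondrial ribosome translates the few proteins encoded by mitochondrial DNA, all of them core subunits of the respiratory chain and ATP synthase. Its ribosomal RNAs are transcribed from mitochondrial DNA, but all of its proteins are encoded in the nucleus, made in the cytosol and imported. Some of these proteins have a bacterial counterpart, and others are found only in mitochondria. A part of the latter takes the place of lost stretches of ribosomal RNA or anchors the ribosome to the inner membrane.

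The CPM values below are scaled for library composition (TMM), and a change was called where edgeR's quasi-likelihood test gave a Benjamini-Hochberg adjusted p under 0.05 over the 18088 genes. Against Control, 32 of the 78 members fell in the PHF12 knockdown, 7 rose and 39 did not pass. Over all tested genes, 17.1% were lower and 14.8% higher in this comparison, so that the members' share of lower calls, 41.0%, lay above that background and their share of higher calls, 8.97%, below it. Against protein-coding genes of the same range of counts (8938 genes, 25.6% lower and 20.8% higher), the same reading held. The median log2 fold change over the members was -0.12, against -0.004 over all tested genes and -0.01 over the coding genes of like level.

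With the SUDS3 siRNA, 27 of the 78 members fell, 8 rose and 43 did not pass. The background here was 19.2% lower and 19.6% higher over all tested genes, and 24.0% lower and 32.3% higher over coding genes of like level. The members' shares were 34.6% lower and 10.3% higher, and their median log2 fold change was -0.08, against -0.02 over all tested genes and 0.04 over the coding genes of like level. By the symbols, 17 MRPL and 15 MRPS genes fell in the PHF12 knockdown, which is 34.7% of the MRPL and 51.7% of the MRPS genes. With the SUDS3 siRNA the counts were 19 MRPL and 8 MRPS genes (38.8% and 27.6%). The quartiles of the members' log2 fold changes were -0.23 and 0.01 in the PHF12 knockdown and -0.15 and 0.05 in the SUDS3 knockdown. The changes were small: in both comparisons with Control every member called lower or higher had a log2 fold change between -0.67 and 0.30. The counts of higher calls were the less settled ones. Without Control library 2, 4 members rose in the PHF12 knockdown, and in the SUDS3 knockdown 5 rose without Control library 1 and 4 without SUDS3 knockdown library 1.

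**Figure D1:**
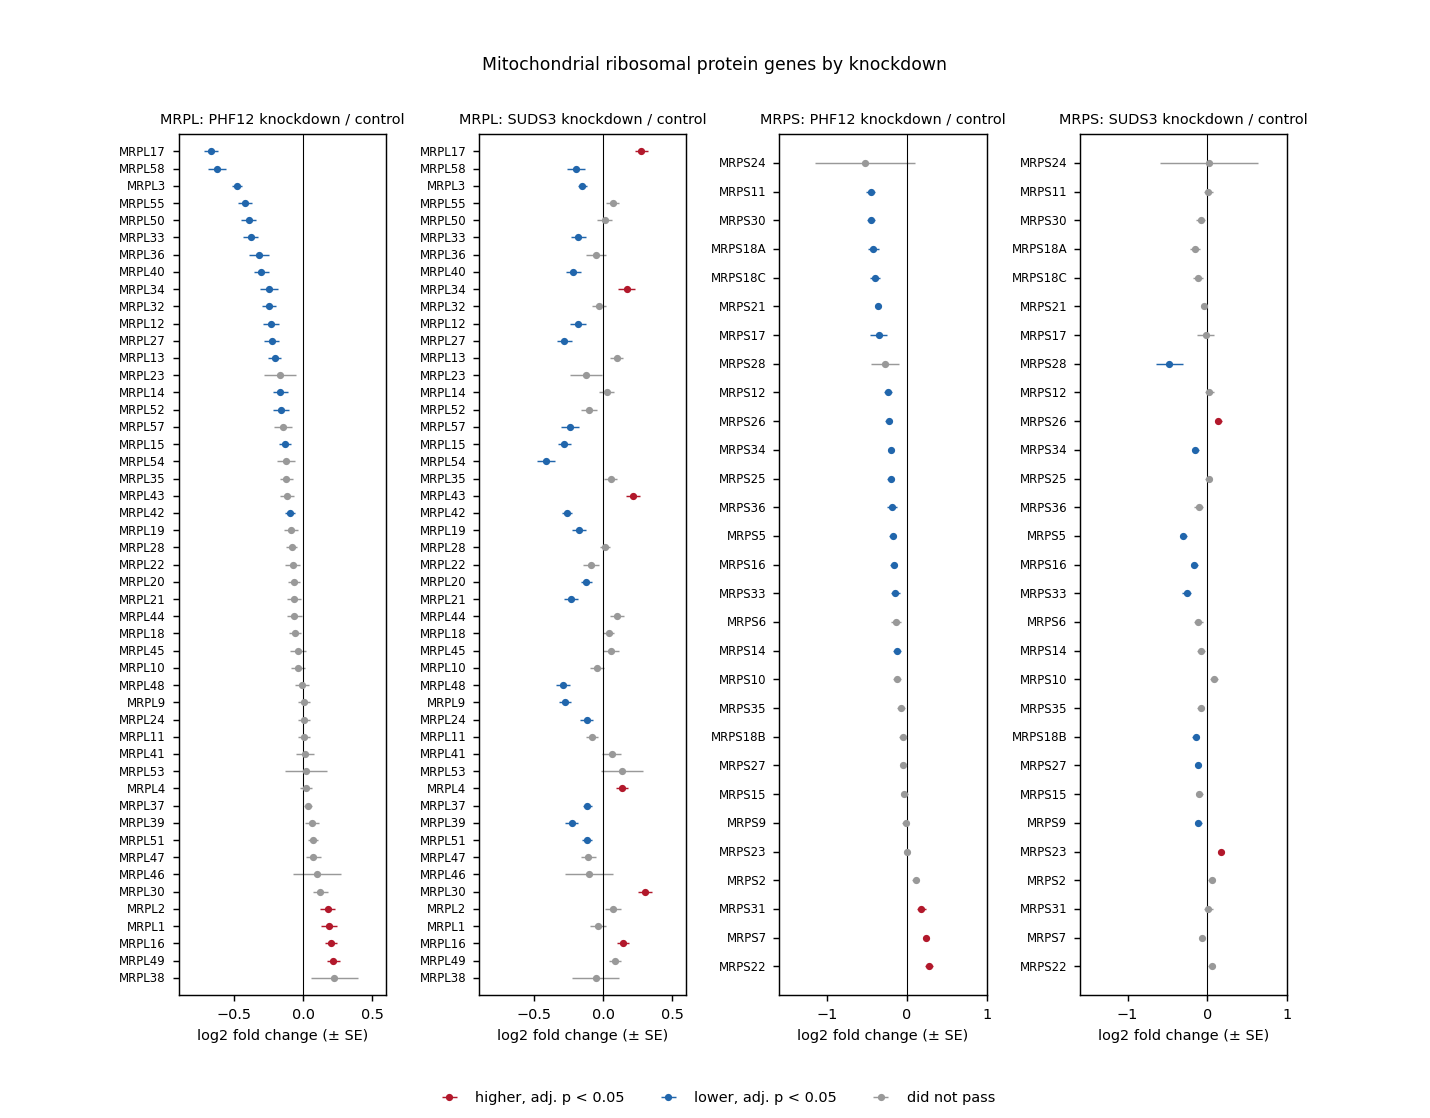
Log2 fold change (x axis, bars are ± SE) of each member (y axis) in the PHF12 and SUDS3 knockdowns against Control, 3 libraries per group, with MRPL genes in the left pair of panels and MRPS genes in the right pair, each pair in the order of the PHF12 knockdown. Blue points fell and red points rose; 32 of 78 members are blue in the PHF12 panels and 27 of 78 in the SUDS3 panels.

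The summed level of the members in CPM was lower as well. The 49 MRPL genes together held 3874, 3874 and 3863 CPM in the Control libraries, 3674, 3620 and 3603 in the PHF12 knockdown and 3712, 3705 and 3690.1 in the SUDS3 knockdown, or 93.8% and 95.7% of the Control mean. The 29 MRPS genes held 2354, 2403 and 2392 CPM in Control, 2210.0, 2206 and 2218 in the PHF12 knockdown (92.8%) and 2301, 2271 and 2281 in the SUDS3 knockdown (95.9%). The 3 libraries of each knockdown lay below all 3 Control libraries in each sum in CPM. In TPM recomputed from the counts and exon lengths, the MRPS sums of the SUDS3 knockdown (3333, 3321 and 3313) overlapped with Control (3262, 3401 and 3420.1). In deposited TPM the MRPL sums of the PHF12 knockdown (7382, 7176 and 7024) overlapped with Control (7370.2, 7341 and 7526). Bulk RNA does not tell fewer cells of a kind from less RNA per cell, and a sum in CPM is a share of the library, so these values are relative to all other transcripts.

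**Figure D2:**
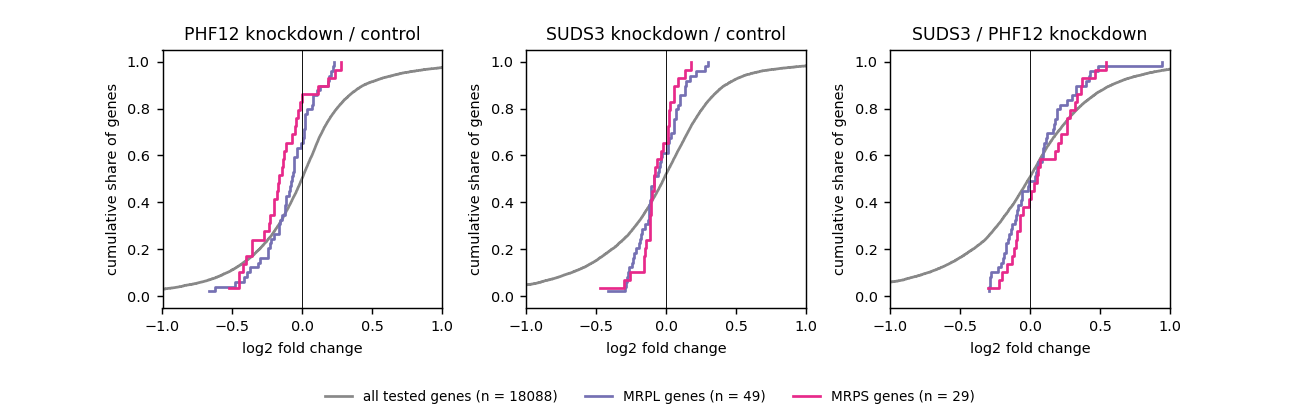
Cumulative share of genes (y axis) by log2 fold change (x axis) for all 18088 tested genes (grey), the 49 MRPL genes (purple) and the 29 MRPS genes (pink) in 3 comparisons of 3 libraries against 3. The member curves are steeper than the grey curve and, in the comparisons with Control, cross it below 0 and lie above it from there on, with member medians of -0.12 (PHF12 knockdown) and -0.08 (SUDS3 knockdown).

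The largest rises and falls named below were picked among called members whose libraries did not overlap between the groups. That lack of overlap is part of the choice. MRPL17 had the largest fall of any called member in the PHF12 knockdown. Its bacterial counterpart lies beside the tunnel through which the nascent chain leaves the ribosome. MRPL17 (chr11:6680782-6683401, GRCh38, minus strand) stood at 72.7, 78.3 and 72.1 CPM in Control and at 48.2, 44.7 and 47.8 in the PHF12 knockdown, with no overlap between the groups (log2 fold change -0.67 ± 0.05 (SE), adjusted p = 2.54e-13). With the SUDS3 siRNA it stood at 90.5, 90.8 and 88.7 CPM, above all Control libraries (log2 fold change 0.27 ± 0.05 (SE), adjusted p = 2.10e-05). It was thus called in opposite directions in the knockdowns, and the direct comparison of SUDS3 knockdown with PHF12 knockdown gave the largest difference among the called members (log2 fold change 0.94 ± 0.05 (SE), adjusted p = 7.52e-18).

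MRPL58, also known as ICT1, is a peptidyl-tRNA hydrolase of the large subunit that frees nascent chains from stalled ribosomes. It was at 48.2, 53.2 and 55.3 CPM in Control and at 36.1, 34.9 and 30.7 in the PHF12 knockdown (log2 fold change -0.62 ± 0.07 (SE), adjusted p = 1.33e-09). The SUDS3 knockdown libraries were at 42.7, 46.1 and 47.9 CPM, also below every Control library, and this smaller fall was called (log2 fold change -0.20 ± 0.07 (SE), adjusted p = 0.0154). That second call was lost without Control library 2 (adjusted p = 0.0658), Control library 3 (0.0953) or SUDS3 knockdown library 1 (0.102). It was also lost in limma on TPM (0.0802 and 0.0817 with a pseudocount of 1 and 0.1).

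MRPL3, whose bacterial counterpart reaches towards the peptidyl transferase centre, fell in both knockdowns. Its levels were 240.4, 249 and 243 CPM in Control, 169, 175 and 181 in the PHF12 knockdown (log2 fold change -0.48 ± 0.04 (SE), adjusted p = 2.32e-13) and 215, 214 and 231 in the SUDS3 knockdown (log2 fold change -0.15 ± 0.04 (SE), adjusted p = 7.82e-04). The 3 groups did not overlap, and the PHF12 knockdown was the lowest.

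MRPS11, the counterpart of a platform protein of the bacterial small subunit, had 61.1, 59.5 and 60.5 CPM in Control and 46.2, 40.5 and 45.6 in the PHF12 knockdown (log2 fold change -0.45 ± 0.06 (SE), adjusted p = 4.08e-08). The SUDS3 knockdown libraries, at 63.1, 61.2 and 58.2 CPM, overlapped with Control (0.01 on the log2 scale, not called). MRPS30, a large-subunit protein in spite of its name, went from 64.4, 69.5 and 73.9 CPM to 50.7, 50.2 and 50.9 in the PHF12 knockdown (log2 fold change -0.45 ± 0.05 (SE), adjusted p = 1.56e-08). Its libraries in the SUDS3 knockdown (65.9, 62.5 and 67.6 CPM) again overlapped with Control.

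MRPS18A is 1 of 3 human paralogs of a single bacterial small-subunit protein, and its product sits in the large subunit. It fell from 53.2, 50.1 and 43.6 CPM to 35.02, 38.9 and 35.8 in the PHF12 knockdown (log2 fold change -0.42 ± 0.07 (SE), adjusted p = 4.28e-06). MRPS18C fell by a like amount, from 46.9, 50.3 and 48.04 CPM to 35.8, 39.4 and 34.7 (log2 fold change -0.40 ± 0.06 (SE), adjusted p = 2.03e-06). Genes on the opposite strand overlap 47.0% of the exon bases of MRPS18A and 40.2% of those of MRPS18C, and the part of such reads was not tested. For MRPS18B, at 92.6, 85.7 and 90.3 CPM in Control and 86.8, 82.4 and 90.3 in the PHF12 knockdown, the groups overlapped and no change was called (log2 fold change -0.05 ± 0.05). Of the paralogs, only MRPS18B was called lower in the SUDS3 knockdown (log2 fold change -0.15 ± 0.05 (SE), adjusted p = 0.0116), a call lost without Control library 1 (adjusted p = 0.0667) or SUDS3 knockdown library 2 (0.0718), and the fold changes of MRPS18A (-0.16 ± 0.07) and MRPS18C (-0.12 ± 0.06) differed from it by less than their standard errors.

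The other members that fell in the PHF12 knockdown were MRPL12, MRPL13, MRPL14, MRPL15, MRPL27, MRPL32, MRPL33, MRPL34, MRPL36, MRPL40, MRPL42, MRPL50, MRPL52, MRPL55, MRPS12, MRPS14, MRPS16, MRPS17, MRPS21, MRPS25, MRPS26, MRPS33, MRPS34, MRPS36 and MRPS5 (log2 fold changes from -0.42, MRPL55, to -0.10, MRPL42). The calls of 12 of these 25 members were followed through the alternatives, and 3 of the 12 were lost under at least 1. The calls of the rest were not followed gene by gene. MRPS14 (log2 fold change -0.13 ± 0.05 (SE), adjusted p = 0.0499) was lost in 16 alternatives, among them the loss of any library other than PHF12 knockdown library 3 (adjusted p from 0.0531 to 0.263). MRPS33 (log2 fold change -0.15 ± 0.05 (SE), adjusted p = 0.0382) was lost without Control library 2 (adjusted p = 0.199) or 3 (0.135), PHF12 knockdown library 1 (0.115) or 3 (0.137) or SUDS3 knockdown library 2 (0.0569). It was also lost with upper-quartile scaling (0.139), with DESeq2's way of scaling in edgeR (0.0613) and in limma on TPM (0.0818 and 0.083 with a pseudocount of 1 and 0.1). MRPL15 (log2 fold change -0.13 ± 0.04 (SE), adjusted p = 0.0239) lost its call without Control library 3 (adjusted p = 0.157) or PHF12 knockdown library 3 (0.108), with upper-quartile scaling (0.125) and with no filter on low counts (0.0523).

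The members that rose in the PHF12 knockdown did so by at most 0.28 on the log2 scale. MRPS22, a small-subunit protein found only in mitochondrial ribosomes, was at 70.3, 71.96 and 69.2 CPM in Control and 80.3, 88.3 and 87.5 in the PHF12 knockdown (log2 fold change 0.28 ± 0.05 (SE), adjusted p = 1.92e-05). MRPS7, the counterpart of a bacterial protein that starts the assembly of the head of the small subunit, was at 123, 133 and 134 CPM and 152, 154 and 153 (log2 fold change 0.24 ± 0.04 (SE), adjusted p = 9.19e-06). In both genes every PHF12 knockdown library lay above every Control library, as the rule for naming them required. The SUDS3 knockdown did not pass (MRPS22 0.05 ± 0.05, MRPS7 -0.06 ± 0.04).

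MRPL49, a large-subunit protein without a bacterial counterpart, rose from 101, 94.9 and 96.7 CPM to 119, 112 and 109.7 (log2 fold change 0.22 ± 0.04 (SE), adjusted p = 1.77e-04). MRPL16, whose counterpart lines the site where aminoacyl-tRNA enters, rose from 90.9, 98.8 and 92.1 CPM to 111, 108 and 106 (log2 fold change 0.21 ± 0.04 (SE), adjusted p = 2.68e-04). Of the small rises, those of MRPL1, the protein of the mobile stalk beside the tRNA exit site (log2 fold change 0.19 ± 0.06 (SE), adjusted p = 0.0131), and MRPL2, whose counterpart holds the subunits together at their interface (log2 fold change 0.18 ± 0.06 (SE), adjusted p = 0.011), each depended on single libraries. MRPL1 was lost without Control library 1 (adjusted p = 0.115), Control library 2 (0.0707) or PHF12 knockdown library 2 (0.0506) and in limma on TPM (0.062 and 0.0629 with a pseudocount of 1 and 0.1). MRPL2 was lost without Control library 2 (0.0655), Control library 3 (0.0503) or PHF12 knockdown library 1 (0.112). MRPS31, a small-subunit protein found only in mitochondria, was the remaining rise (log2 fold change 0.18 ± 0.05 (SE), adjusted p = 0.00859).

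**Figure D3:**
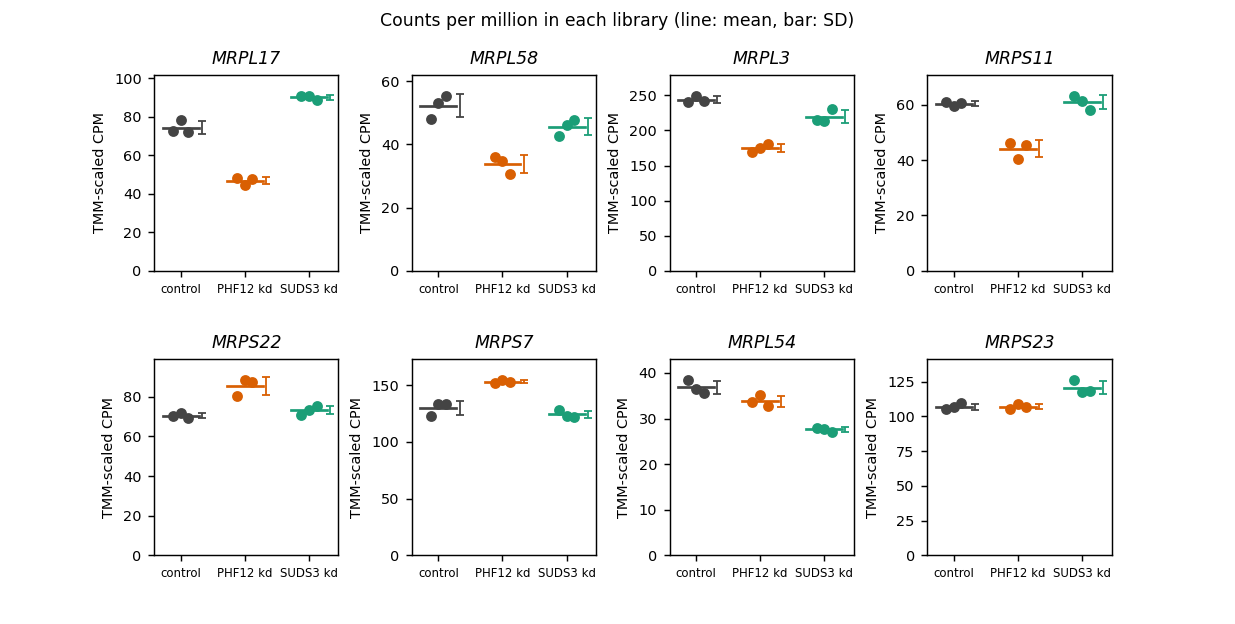
CPM in each library (points), mean (line) and SD (bar) of 8 members in Control, PHF12 knockdown (kd) and SUDS3 knockdown, 3 libraries each, on y axes that start at 0. MRPL17 is lowest in the PHF12 knockdown and highest in the SUDS3 knockdown, MRPS22 and MRPS7 are highest in the PHF12 knockdown, and MRPL54 is lowest in the SUDS3 knockdown.

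MRPS28 led the falls in the SUDS3 knockdown and is a small-subunit protein with few counts. It stood at 5.94, 5.54 and 5.70 CPM in Control and 4.68, 4.67 and 2.97 in the SUDS3 knockdown (log2 fold change -0.48 ± 0.17 (SE), adjusted p = 0.0266), and 35.8% of its annotated exon bases are shared with another gene on the same strand. The call was lost without SUDS3 knockdown library 3 (log2 fold change -0.29, adjusted p = 0.212), Control library 1 (0.0745) or Control library 3 (0.0536). MRPL54, a large-subunit protein found only in mitochondria, fell from 38.4, 36.5 and 35.7 CPM to 27.98, 27.8 and 27.1 with no overlap (log2 fold change -0.42 ± 0.07 (SE), adjusted p = 2.92e-06). Its fold change in the PHF12 knockdown did not pass (-0.12 ± 0.06).

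MRPS5, the counterpart of a bacterial protein at the mRNA entry, stood at 101, 108 and 96.4 CPM in Control and 81.5, 83.3 and 82.5 in the SUDS3 knockdown (log2 fold change -0.30 ± 0.05 (SE), adjusted p = 1.20e-06). MRPL48, again without a bacterial counterpart, stood at 56.1, 57.2 and 56.8 CPM and 44.8, 45.7 and 48.4 (log2 fold change -0.29 ± 0.05 (SE), adjusted p = 3.18e-05). MRPL27, whose bacterial counterpart reaches the peptidyl transferase centre, fell from 71.1, 75.1 and 70.7 CPM to 58.4, 60.4 and 59.3 (log2 fold change -0.28 ± 0.05 (SE), adjusted p = 4.73e-05), and MRPL15, whose counterpart binds the large ribosomal RNA, from 97.1, 96.4 and 103 CPM to 80.4, 80.2 and 83.4 (log2 fold change -0.28 ± 0.04 (SE), adjusted p = 2.99e-06). In each of these 4 genes all SUDS3 knockdown libraries lay below all Control libraries, as the rule for naming them required. The others that fell were MRPL12, MRPL19, MRPL20, MRPL21, MRPL24, MRPL3, MRPL33, MRPL37, MRPL39, MRPL40, MRPL42, MRPL51, MRPL57, MRPL58, MRPL9, MRPS16, MRPS18B, MRPS27, MRPS33, MRPS34 and MRPS9 (log2 fold changes from -0.28, MRPL9, to -0.11, MRPS9). The call of MRPL33 was lost in limma on TPM (adjusted p = 0.066 and 0.0675 with a pseudocount of 1 and 0.1). Lost calls of MRPL12, MRPL58, MRPS18B and MRPS27 are given in other paragraphs, and not every member of this list was followed through the alternatives.

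The 6 largest rises in the SUDS3 knockdown included MRPL17, given above. MRPL30, a large-subunit protein with a bacterial counterpart, rose from 49.2, 51.8 and 48.6 CPM to 64.7, 58.98 and 60.8 (log2 fold change 0.30 ± 0.05 (SE), adjusted p = 2.06e-05), MRPL43, found in mitochondrial ribosomes only, from 71.2, 73.7 and 68.00 to 83.2, 82.8 and 81.1 (log2 fold change 0.21 ± 0.05 (SE), adjusted p = 3.85e-04) and MRPS23, a mitochondria-specific protein of the small subunit, from 105, 107 and 109 to 126, 117 and 119 (log2 fold change 0.17 ± 0.04 (SE), adjusted p = 8.58e-04). None of the 3 was called in the PHF12 knockdown. MRPL34, the counterpart of a small protein of the bacterial large subunit, rose from 48.4, 51.03 and 43.6 CPM to 52.7, 55.5 and 52.6 (log2 fold change 0.17 ± 0.06 (SE), adjusted p = 0.0356), but without Control library 3 its log2 fold change was 0.11 (adjusted p = 0.232), and the call was also lost without Control library 1 (0.0554), SUDS3 knockdown library 1 (0.0621) or SUDS3 knockdown library 2 (0.104). MRPL16 rose from 90.9, 98.8 and 92.1 CPM to 106, 101 and 103 (log2 fold change 0.14 ± 0.04 (SE), adjusted p = 0.0104), a call lost without Control library 1 (adjusted p = 0.0611) or SUDS3 knockdown library 1 (0.0664). The other rises were those of MRPS26, given below, and MRPL4, the counterpart of a protein of the bacterial exit tunnel (log2 fold change 0.14 ± 0.04 (SE), adjusted p = 0.0106).

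The knockdowns were also compared directly, which does not involve the shared Control libraries. In the SUDS3 knockdown 28 members were higher than in the PHF12 knockdown, 17 were lower and 33 did not pass, against a background of 22.7% higher and 21.1% lower over all tested genes. The members' shares of 35.9% and 21.8% compare with 36.0% and 25.4% over coding genes of like level, so that neither count stood far from the background at that level. The median over the members was 0.04, and it turned to -0.03 with upper-quartile scaling, under which 29 members were lower. With that scaling the share of higher calls among all called genes went from 51.8% to 41.2% in this comparison and from 46.4% to 56.9% in the PHF12 knockdown against Control.

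After MRPL17, the members that were most above the PHF12 knockdown were MRPL55, a large-subunit protein, with 60.9, 58.5 and 58.6 CPM in the PHF12 knockdown and 83.8, 85.2 and 80.4 in the SUDS3 knockdown (log2 fold change 0.49 ± 0.05 (SE), adjusted p = 1.00e-10), MRPS11 (0.47 ± 0.06) and MRPL58 (0.43 ± 0.07). MRPL55 was at 81.9, 80.00 and 76.2 CPM in Control, so that its libraries fell in the PHF12 knockdown (log2 fold change -0.42 ± 0.05 (SE), adjusted p = 6.68e-09) and overlapped with Control in the SUDS3 knockdown. The members that were most below it were MRPS7 (-0.30 ± 0.04), MRPL39 (-0.30 ± 0.05), MRPL54 (-0.29 ± 0.07) and MRPL48 (-0.29 ± 0.05). MRPL39, a large-subunit protein related to threonyl-tRNA synthetases, was at 86.3, 91.6 and 84.3 CPM in Control, 87.9, 93.6 and 92.8 in the PHF12 knockdown and 74.02, 71.2 and 78.4 in the SUDS3 knockdown, where it fell against Control (log2 fold change -0.23 ± 0.05 (SE), adjusted p = 1.83e-04).

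MRPL27, MRPL40, MRPL58 and MRPL12 were the members with the largest falls called in both knockdowns, judged by the smaller of their fold changes. Both comparisons use the same Control libraries, so a chance deviation of those libraries enters both. MRPL40, a large-subunit protein found only in mitochondria, stood at 67.6, 64.95 and 63.4 CPM in Control, 52.9, 51.6 and 54.4 in the PHF12 knockdown (log2 fold change -0.30 ± 0.05 (SE), adjusted p = 2.11e-05) and 54.5, 59.6 and 54.3 in the SUDS3 knockdown (log2 fold change -0.22 ± 0.05 (SE), adjusted p = 0.00114). MRPL27 was at 57.3, 61.2 and 66.9 CPM in the PHF12 knockdown (log2 fold change -0.23 ± 0.05 (SE), adjusted p = 9.08e-04). MRPL12, the stalk protein that recruits translation factors, was at 53.5, 47.3 and 50.7 CPM in Control, 43.8, 39.8 and 45.5 in the PHF12 knockdown (log2 fold change -0.23 ± 0.06 (SE), adjusted p = 0.00284) and 45.04, 44.5 and 43.7 in the SUDS3 knockdown (log2 fold change -0.18 ± 0.06 (SE), adjusted p = 0.0144). The SUDS3 call of MRPL12 was lost without Control library 1 (adjusted p = 0.107) and in limma on TPM (0.0915 and 0.0936 with a pseudocount of 1 and 0.1). Of its exon bases, 68.2% are shared with another annotated gene on the same strand.

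MRPL34 and MRPS26 joined MRPL17 among the members called in opposite directions. MRPL34 was at 43.7, 36.5 and 40.3 CPM in the PHF12 knockdown (log2 fold change -0.25 ± 0.06 (SE), adjusted p = 0.00256). MRPS26, a mitochondria-specific small-subunit protein, went from 101, 106 and 103 CPM in Control to 90.2, 83.8 and 90.3 in the PHF12 knockdown (log2 fold change -0.23 ± 0.04 (SE), adjusted p = 8.37e-05) and 116, 116 and 108 in the SUDS3 knockdown (log2 fold change 0.13 ± 0.04 (SE), adjusted p = 0.014). The direct comparison, which is the test of that difference, was past the threshold for MRPL34 (0.42, adjusted p = 1.23e-06) and MRPS26 (0.36, adjusted p = 1.17e-08). The SUDS3 call of MRPS26 was lost without Control library 1 (adjusted p = 0.0634) or SUDS3 knockdown library 1 (0.0818) and with upper-quartile scaling (0.0558). That of MRPL34 was also lost with upper-quartile scaling (0.0871), besides the libraries named above, and in limma on TPM (0.0685 and 0.0704 with a pseudocount of 1 and 0.1).

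Among the members chosen for their known roles, MRPS34, which takes part in the stability of the small ribosomal RNA, fell in both knockdowns: 159, 172 and 174 CPM in Control, 151, 142 and 146 in the PHF12 knockdown (log2 fold change -0.20 ± 0.04 (SE), adjusted p = 6.08e-05) and 152, 153 and 150.1 in the SUDS3 knockdown (log2 fold change -0.15 ± 0.04 (SE), adjusted p = 0.00197). MRPS27, a pentatricopeptide-repeat protein that binds RNA, was called in the SUDS3 knockdown (log2 fold change -0.11 ± 0.04 (SE), adjusted p = 0.0119), a call lost without Control library 1 (adjusted p = 0.0612) or SUDS3 knockdown library 2 (0.158). MRPL37, found only in mitochondrial ribosomes, was at 317, 308 and 307 CPM in Control and 289, 285 and 285 in the SUDS3 knockdown (log2 fold change -0.12 ± 0.03 (SE), adjusted p = 0.0022). MRPL44, which resembles RNase III enzymes, did not pass in either knockdown (-0.06 ± 0.05 and 0.10 ± 0.05).

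Members were counted apart by the number in their symbol. Those up to MRPL36 and MRPS21, and MRPS24, were taken to have a bacterial counterpart. This rule compares no sequences and can misplace single members, so the counts are approximate. Of the 45 taken to have a counterpart, 20 fell (44.4%) and 4 rose in the PHF12 knockdown (median -0.13). Of the 33 others, 12 fell (36.4%) and 3 rose (median -0.07). Under SUDS3 knockdown the first kind gave 14 lower (31.1%) and 5 higher (median -0.06) and the second 13 lower (39.4%) and 3 higher (median -0.11). Over coding genes of like level, 25.6% were lower in the PHF12 knockdown and 24.0% in the SUDS3 knockdown. No test was made between the kinds.

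Reads of these genes can be shared with near-identical copies. Of the 78 members, 34 have a pseudogene named after them in the annotation, up to 8 for 1 gene, and 16 share exon bases with another gene on the same strand, which counting by strand does not separate. A further kind of overlap, with exons on the opposite strand, is found in 29 members. Reads there are separated only if the counting used the strand, which was not given in the sources used here. Of the 37 members with neither a pseudogene nor a same-strand overlap, 15 fell (40.5%) and 4 rose (10.8%) in the PHF12 knockdown. In the SUDS3 knockdown 10 of them fell (27.0%) and 7 rose (18.9%). Of the 41 others, 17 fell (41.5%) and 3 rose (7.32%) in the PHF12 knockdown, and 17 fell (41.5%) and 1 rose (2.44%) in the SUDS3 knockdown. Coding genes of like level gave 25.6% lower and 20.8% higher in the PHF12 knockdown. In the SUDS3 knockdown they gave 24.0% lower and 32.3% higher. The share of falls among the 37 in the SUDS3 knockdown thus lay near that background, and that of the 41 others above it. Only 20 of the 37 have no exon overlap on the opposite strand either, a subset chosen after seeing the data. Of these, 10 fell and 2 rose in the PHF12 knockdown and 7 fell and 4 rose in the SUDS3 knockdown. Outside the 20 are, for example, MRPS18A and MRPS18C, with the largest shares of exon bases overlapped on the opposite strand (47.0% and 40.2%). MRPL43 (36.9%) and MRPS22 (7.80%) are outside them too. MRPS18A and MRPS18C also have pseudogenes named after them. The summed CPM of the 37 members was 93.6% of Control for MRPL and 96.3% for MRPS genes in the PHF12 knockdown, and 99.1% and 98.7% in the SUDS3 knockdown. In recomputed TPM the direction in the SUDS3 knockdown turned, to 100.9% for MRPL and 100.9% for MRPS genes, and in deposited TPM to 101.3% and 103.3%. A direction of the sums of these 37 members in the SUDS3 knockdown is therefore not settled. The part of shared reads was not tested.

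Levels of different genes can be compared only per base of transcript, and the deposited TPM values did not serve for that. The length implied by the ratio of a gene's count to its deposited TPM had no relation to its annotated exon length: over 11143 genes with a total above 2000 counts, Spearman's rho was 0.006, and 36.3% of genes came within 2-fold after scaling to the same median. Within a gene the ratio was the same in every library, once libraries were scaled (largest coefficient of variation 0.0405%), so ratios between libraries of 1 gene are not touched by it. MRPL22, for example, was first of the members by deposited TPM (mean 2372 in Control) and number 66 by TPM recomputed from the counts and exon lengths (39.1 ± 2.22, SD, n = 3), and MRPL44 was number 77 by deposited TPM (2.15) and number 33 by recomputed TPM (114 ± 2.86).

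**Figure D4:**
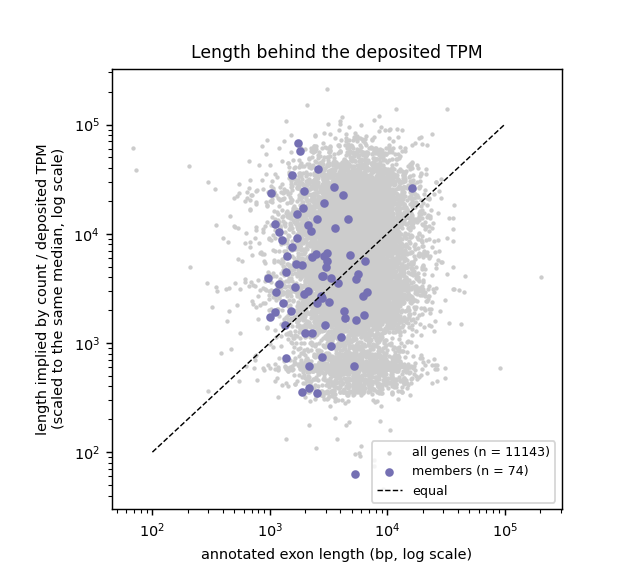
Length implied by count over deposited TPM (y axis, log scale, scaled to the same median) against annotated exon length in bp (x axis, log scale) for 11143 genes (grey) and the members among them (purple); the dashed line marks equal lengths. The points form a broad cloud that does not follow the line (Spearman's rho 0.006).

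By recomputed TPM the members spanned a wide range in Control. MRPS34 was highest (531 ± 32.6, mean ± SD, n = 3), followed by MRPL37 (422 ± 2.18), MRPL51 (377 ± 11.2), MRPS26 (317 ± 11.2) and MRPL18 (316 ± 15.2). The neighbours MRPS26 and MRPL18 did not differ beyond their spread. Lowest were MRPS24 (0.726 ± 0.389), MRPL46 (2.39 ± 0.242), MRPL38 (4.47 ± 0.796), MRPS28 (10.9 ± 0.304) and MRPL23 (12.9 ± 1.14). Of these 5 all but MRPL23 share exon bases with another gene on the same strand (MRPS24 23.2%, MRPL46 11.3%, MRPL38 37.5%, MRPS28 35.8%) and the part of the shared bases in their low counts was not tested. The 5 highest by deposited TPM were MRPL22, MRPL37, MRPS18B, MRPL18 and MRPS33, and the 5 lowest MRPS24, MRPL44, MRPL33, MRPS14 and MRPL9.

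An earlier scan of the same fold changes had picked 1 hexamer per knockdown whose presence in 3′ UTRs went with lower fold changes: AATCAC for the PHF12 siRNA and TACATT for the SUDS3 siRNA. An siRNA can lower transcripts that pair with the seed at its 5′ end alone, much as a microRNA does. The sequences of the siRNAs were not used here, so no match to a seed was made, and the hexamers, chosen on these libraries, are not independent evidence. Of the 9 members that fell in the PHF12 knockdown with AATCAC in their longest annotated 3′ UTR, 6 are printed here as examples of the sequence around the site. MRPL13, MRPL42 and MRPS33 are not printed. Each site is given with the hexamer in capitals and up to 12 bases on each side, 5′ to 3′ on the transcript, from GENCODE 29 transcripts (GRCh38). They lie at chr17:75021006-75021023 (plus strand), where the hexamer begins at the first base of the UTR, chr3:131462602-131462631 (minus), chr1:228106691-228106720 (minus), chr9:101390423-101390452 (minus), chr2:27779575-27779604 (plus) and chr1:150308322-150308351 (plus).
MRPL58: AATCACcctctgcagctg
MRPL3: tagtcacaacaaAATCACacatgtcatctt
MRPL55: gggctgttcttaAATCACtcgttcttgaag
MRPL50: gaaacacattgaAATCACtgtctttccctg
MRPL33: gaaatggcatggAATCACtgcctcctgtga
MRPS21: gcaataaactcaAATCACatgtctgcaaga

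AATCAC was present in the 3′ UTR of 15 of the 78 members, or 19.2%, against 30.7% of 13773 tested genes with an annotated 3′ UTR. The members' UTRs were short, with a median of 493.5 bases against 1370.0 over all. Of the 15 members with the hexamer, 9 fell in the PHF12 knockdown and none rose (60.0% lower, median -0.15), against 38.2% lower among all genes with it. Of the 63 members without the hexamer, 23 fell and 7 rose (36.5% lower, median -0.09), against 13.5% lower among all genes without it. MRPL17, MRPS11, MRPS30 and MRPS18A were among the members that fell without it. Only the longest annotated 3′ UTR of each gene was searched. The part of pairing with the siRNA in the falls was not tested, for members with or without the hexamer.

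TACATT was present in 16 members, 20.5% against 40.9% of all genes. Of these 16, 3 fell in the SUDS3 knockdown (18.8%, median -0.06) and so did 24 of the 62 without it (38.7%, median -0.08), against 31.4% and 17.2% among all genes with and without it. Of the 52 members with neither hexamer, 18 fell and 4 rose in the PHF12 knockdown, and 21 fell and 6 rose in the SUDS3 knockdown.

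**Figure D5:**
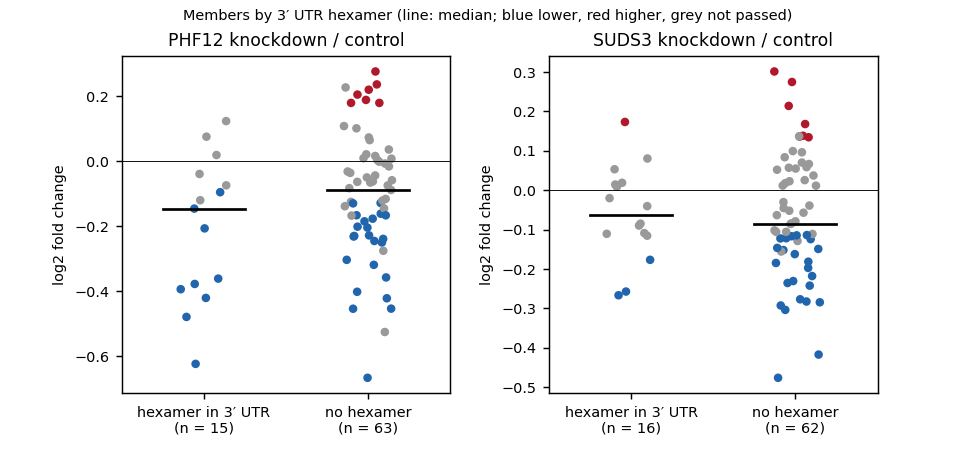
Log2 fold change (y axis) of each member with or without the knockdown's hexamer in its 3′ UTR, for the PHF12 knockdown (left, 15 and 63 members) and the SUDS3 knockdown (right, 16 and 62 members); lines are medians, blue points fell, red rose and grey did not pass. On the left the medians are -0.15 with and -0.09 without the hexamer, and on the right -0.06 and -0.08.

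Promoters were taken from RefSeq (GRCh38.p14), 250 bases before to 50 after each annotated start, and 69 of the 78 members matched. Nuclear genes of mitochondrial proteins are known for binding NRF1, the ETS factor GABP and YY1 near their starts, so each window was searched on both strands for the letters GCGCATGC (NRF1), CCGGAAG (ETS, GABP) and AAGATGGC (YY1), and, as more common elements, CACGTG (E-box) and GGGCGG (SP1). The promoters of MRPL17, the member with the largest called fall, of MRPL58 and MRPS18A, which also fell, and of MRPS22, the member that rose most in the PHF12 knockdown, are shown to let their elements be compared. NRF1, ETS and YY1 matches are in capitals, in either orientation, and matches that overlap form 1 longer run. They lie at chr11:6683291-6683590 (minus strand), chr17:75012420-75012719 (plus), chr6:43687742-43688041 (minus) and chr3:139343744-139344043 (plus, the first of 3 annotated starts).
MRPL17: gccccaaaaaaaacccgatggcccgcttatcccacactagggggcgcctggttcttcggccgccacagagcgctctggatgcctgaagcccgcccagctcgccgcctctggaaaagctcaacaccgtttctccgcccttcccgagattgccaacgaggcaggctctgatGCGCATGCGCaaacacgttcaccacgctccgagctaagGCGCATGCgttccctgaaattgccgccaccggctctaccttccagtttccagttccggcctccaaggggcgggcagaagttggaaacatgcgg
MRPL58: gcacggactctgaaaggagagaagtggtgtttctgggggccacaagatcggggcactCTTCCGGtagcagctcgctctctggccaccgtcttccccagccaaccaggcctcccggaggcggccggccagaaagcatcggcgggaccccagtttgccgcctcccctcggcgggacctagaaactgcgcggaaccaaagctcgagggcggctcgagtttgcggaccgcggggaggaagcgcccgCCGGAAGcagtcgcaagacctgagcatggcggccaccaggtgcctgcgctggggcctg
MRPS18A: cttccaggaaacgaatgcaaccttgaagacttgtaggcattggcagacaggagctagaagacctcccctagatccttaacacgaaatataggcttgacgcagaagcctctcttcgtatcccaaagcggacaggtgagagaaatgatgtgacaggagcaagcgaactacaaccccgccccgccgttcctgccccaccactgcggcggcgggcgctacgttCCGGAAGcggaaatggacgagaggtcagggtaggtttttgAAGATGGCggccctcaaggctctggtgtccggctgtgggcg
MRPS22: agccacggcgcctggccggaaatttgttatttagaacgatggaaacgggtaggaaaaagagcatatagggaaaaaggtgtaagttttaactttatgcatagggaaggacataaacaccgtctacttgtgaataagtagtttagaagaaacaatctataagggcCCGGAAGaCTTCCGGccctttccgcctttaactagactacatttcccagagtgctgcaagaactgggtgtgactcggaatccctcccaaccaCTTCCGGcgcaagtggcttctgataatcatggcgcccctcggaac

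The 69 members have 85 promoter windows, since some have several starts. The ETS letters were in 38.8% of these windows, against 12.8% of the 22199 promoters of coding genes. The YY1 letters were in 27.1% (against 3.53%), the NRF1 letters in 7.06% (against 3.74%), the E-box letters in 10.6% (against 8.34%) and the SP1 letters in 60.0% (against 56.3%). Counted by member, where any of its windows may hold the match, 30 of the 69 had ETS, 21 YY1 and 6 NRF1 letters. A match is a run of letters, not a measured binding site.

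Fold changes were then read by motif. Of the 30 members with ETS letters, 14 fell and 3 rose in the PHF12 knockdown and 12 fell and 5 rose in the SUDS3 knockdown, against 15 and 3, and 12 and 3, of the 39 without. Of the 21 with YY1 letters, 8 fell and 2 rose, and 5 fell and none rose, against 21 and 4, and 19 and 8, of the 48 without. Of the 6 with NRF1 letters, 4 fell and none rose in the PHF12 knockdown, and in the SUDS3 knockdown 1 fell and 1 (MRPL17) rose. Of the 63 without, 25 fell and 6 rose in the PHF12 knockdown, and 23 fell and 7 rose in the SUDS3 knockdown. Coding genes of like level gave 25.6% lower and 20.8% higher in the PHF12 knockdown, and 24.0% and 32.3% in the SUDS3 knockdown. The counts are a description, and no difference between members with and without a motif was tested.

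Several members share a start region with another gene. A protein-coding neighbour on the opposite strand started within 500 bases of the start of 23 of the 78 members (29.5%), against 13.6% of 13868 tested coding genes. The start was the outermost annotated 5′ end of a gene in both counts. For MRPS22 and MRPL11, which are among the 23, it lies far from the RefSeq promoters, so their pairing rests on that outer end. MRPL46 and MRPS11 form such a pair with each other on chromosome 15, with starts 34 bases apart. MRPS11 fell in the PHF12 knockdown (above), whereas MRPL46, at 5.03, 4.09 and 4.22 CPM in Control and 4.49, 4.82 and 5.00 in the PHF12 knockdown, overlapped between groups, with a wide standard error (log2 fold change 0.10 ± 0.17). Of the 23 members with such a neighbour, 10 fell and 2 rose in the PHF12 knockdown. In the SUDS3 knockdown 6 of these 23 fell and 2 rose. Among the 55 members without one, 22 fell and 5 rose in the PHF12 knockdown, and 21 fell and 6 rose in the SUDS3 knockdown. The share of falls was thus similar with and without a neighbour in the PHF12 knockdown. In the SUDS3 knockdown it was smaller with one. No difference between these members was tested.

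The rest of the mitochondrial translation pathway was counted with the same test, and values in parentheses below are log2 fold changes. Over all tested genes, 14.8% were higher and 17.1% lower in the PHF12 knockdown, and 19.6% and 19.2% in the SUDS3 knockdown. Over coding genes in the members' range of counts the shares were 20.8% and 25.6%, and 32.3% and 24.0%. The counts below are to be read beside these shares, and no list was tested as a set. Of 5 mitochondrial ribosome subunits without an MRP symbol, 3 rose and 1 fell in the PHF12 knockdown and 2 rose and 1 fell in the SUDS3 knockdown. DAP3, a GTP-binding protein of the small subunit, rose in both (0.15, adjusted p = 6.64e-04, and 0.17, adjusted p = 1.04e-04), and so did PTCD3, its pentatricopeptide-repeat protein (0.29, adjusted p = 6.69e-08, and 0.15, adjusted p = 0.00106). AURKAIP1 rose in the PHF12 knockdown (0.21, adjusted p = 1.65e-04) and GADD45GIP1, of the large subunit, fell in the SUDS3 knockdown (-0.19, adjusted p = 0.00376).

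Of 23 factors of ribosome assembly and ribosomal RNA modification, 5 rose and 6 fell in the PHF12 knockdown and 8 rose and 3 fell in the SUDS3 knockdown. The shares in the PHF12 knockdown were near those of coding genes of like level. The helicase DHX30 rose in the former (0.29, adjusted p = 1.99e-09) and fell in the latter (-0.15, adjusted p = 1.40e-04). RPUSD4, a pseudouridine synthase of the large ribosomal RNA (-0.31, adjusted p = 1.01e-04), and the methyltransferase MRM1 (-0.49, adjusted p = 0.00132) fell in the PHF12 knockdown. MPV17L2 rose (0.49, adjusted p = 2.48e-07) and FASTKD2 fell (-0.42, adjusted p = 2.51e-06) in the SUDS3 knockdown.

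Of 15 translation factors, 3 rose and 1 fell in the PHF12 knockdown and 5 rose and 2 fell in the SUDS3 knockdown. TACO1, an activator of COX1 translation (0.22, adjusted p = 0.00123), and the elongation factor GUF1 (0.19, adjusted p = 0.026) rose and the release factor MTRF1 (-0.28, adjusted p = 0.0287) fell in the PHF12 knockdown. Under SUDS3 knockdown the initiation factor MTIF2 fell (-0.30, adjusted p = 1.14e-06), and the formyltransferase MTFMT (0.53, adjusted p = 1.31e-06) and the insertase OXA1L (0.20, adjusted p = 2.75e-04) rose.

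Of 20 genes for the charging of mitochondrial tRNAs, 10 rose and 4 fell in each knockdown. NARS2, for asparagine, had the largest fall of the list in the PHF12 knockdown, from 52.5 ± 2.07 CPM (SD, n = 3) to 28.3 ± 2.37 (-0.89, adjusted p = 4.00e-14), and was at 54.2 ± 1.77 in the SUDS3 knockdown. TARS2, for threonine, rose in both (0.28, adjusted p = 2.65e-06, and 0.19, adjusted p = 4.06e-04), AARS2 was among the rises in the PHF12 knockdown (0.27, adjusted p = 1.28e-04), and MARS2 (0.44, adjusted p = 1.30e-05) and PARS2 (0.50, adjusted p = 1.75e-05) among those in the SUDS3 knockdown.

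Of 20 genes of mitochondrial transcription and RNA processing, 6 rose and 4 fell in the PHF12 knockdown and 7 rose and 4 fell in the SUDS3 knockdown. GRSF1, which binds RNA in mitochondrial granules, fell from 212 ± 1.43 to 166 ± 6.76 CPM in the PHF12 knockdown (-0.35, adjusted p = 3.07e-10), and LRPPRC, which holds mitochondrial mRNAs stable, rose (0.20, adjusted p = 9.62e-06). HSD17B10, a subunit of mitochondrial RNase P, rose in both (0.22, adjusted p = 2.13e-05, and 0.34, adjusted p = 3.84e-09). FASTKD5 rose (0.43, adjusted p = 3.29e-07) and the poly-A polymerase MTPAP fell (-0.36, adjusted p = 1.17e-05) in the SUDS3 knockdown.

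Both mitochondrial ribosomal RNAs rose in both knockdowns, as measured in poly-A selected libraries. MT-RNR2, of the large subunit, had 4206 ± 23.8 CPM in Control, 5864 ± 158 in the PHF12 knockdown (0.48, adjusted p = 1.83e-18) and 4563 ± 159 in the SUDS3 knockdown (0.12, adjusted p = 1.16e-04), and MT-RNR1, of the small subunit, had 969 ± 20.4, 1247 ± 13.7 (0.36, adjusted p = 9.40e-14) and 1041 ± 34.4 (0.10, adjusted p = 0.00185). Of 8 transcription factors and coactivators of nuclear genes for mitochondria, none rose and 2 fell in each knockdown. This share of falls was near that of coding genes of like level. PPARGC1B fell in both (-0.57, adjusted p = 1.34e-06, and -0.44, adjusted p = 5.26e-05), MYC in the PHF12 knockdown (-0.20, adjusted p = 6.96e-05) and GABPA, the DNA-binding subunit of GABP, in the SUDS3 knockdown, from 74.3 ± 3.66 to 50.8 ± 0.969 CPM (-0.55, adjusted p = 1.17e-10). NRF1 and YY1 did not pass in either.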

How the data were processed

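RNA of 9 HEK293T libraries (3 per group) was measured by poly-A selected, stranded RNA-seq, per the labels' protocols. The submitters' processing notes name Trimmomatic 0.36, HISAT2 2.1.0, HTSeq and GRCh38. The authors deposited whole-number counts per gene, and TPM values that sum to the same total in each library. The annotation, the strand setting and the lengths behind the deposited TPM were not given in the sources used here. Gene IDs were matched to GENCODE 29, and all 78 members had an entry in both tables.

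Genes were kept by edgeR's filterByExpr (minimum count 10). Counts were scaled by TMM and tested by edgeR 4.0.16 quasi-likelihood fits with robust dispersion, 3 group means and 3 contrasts, with Benjamini-Hochberg adjustment over all tested genes. The standard error of a log2 fold change was its size divided by the square root of F. TPM were recomputed from counts and the union of exon lengths. The test was checked on simulated counts for 17624 genes: in the PHF12 comparison 20 of 50 genes changed 1.25-fold, 33 of 50 changed 1.5-fold, 36 of 50 changed 2-fold and 37 of 50 changed 3-fold were recovered, with 6 false among the 132 calls over all sizes.

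DESeq2 1.42.0, limma 3.58.1 on log2(TPM + 1) and log2(TPM + 0.1) (TPM of at least 1 in 3 libraries), other scalings and filters, counts divided by 4, a replicate block, a fit of only the groups compared and each library left out were alternatives. The members, gene lists and hexamers were chosen with earlier results of these data known. Members named in full were, among those called with no overlap of libraries, the 6 that rose and the 6 that fell most in each knockdown and the 4 each way between the knockdowns; the 4 called in the same and in opposite directions with the largest smaller change; the 5 highest and lowest by deposited TPM; and those with a known role or a paralog. MRPL50, MRPS21, MRPL46 and the members at the ends of the recomputed TPM order were named after their values were seen. Of each further list, the 3 called genes with the smallest p per knockdown were named.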

Additional observations from a re-analysis of the deposited data

How the results depend on the processing

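Of 76 calls on named members, 57 were kept under every alternative and none reversed. With upper-quartile scaling the median of the members was -0.079 in the PHF12 knockdown, -0.11 in the SUDS3 knockdown and -0.026 between the knockdowns, which reversed the last, and 29 members were lower in the SUDS3 than in the PHF12 knockdown; this scaling shifted the median of all genes by at most 0.067. On log2(TPM + 1) the medians were -0.10 and -0.064 in the PHF12 and SUDS3 knockdowns, and on log2(TPM + 0.1) -0.065 in the latter. Counts divided by 4 gave 0.026 between the knockdowns. With these counts 14548 genes were tested, and the background changed with that number. Among them, 2966 were higher and 3152 lower in the PHF12 knockdown, against 2680 and 3096 of 18088 in the main fit. In the SUDS3 knockdown 3626 were higher and 3560 lower, against 3537 and 3467. Leaving out 1 library gave 4 to 8 higher and 28 to 30 lower members with PHF12 knockdown (medians -0.12 to -0.090), 4 to 9 and 22 to 27 with SUDS3 knockdown (-0.098 to -0.055) and 23 to 29 and 15 to 18 between them (0.014 to 0.051). The causes were not tested.

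Summed deposited TPM of the members was 97.1% (MRPL) and 92.0% (MRPS) of Control in the PHF12 knockdown and 96.1% and 96.1% in the SUDS3 knockdown. Sums in this unit weight the genes by values that did not follow exon lengths. Without members that have a pseudogene or an overlapping gene, MRPS was 93.4% with PHF12 knockdown, and MRPL and MRPS were 101.3% and 103.3% with SUDS3 knockdown. With TPM recomputed from exon lengths, an alternative chosen after seeing the data, the sums were 92.9% and 90.4% with PHF12 knockdown and 97.9% and 98.8% with SUDS3 knockdown.

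Replicate numbers did not pair the libraries: same-numbered libraries did not deviate together. A replicate block changed none of the 76 calls on named members. The depth limits members of few counts, such as MRPS24, MRPL46, MRPL38, MRPL53 and MRPS28, whose standard errors were above 0.1 on the log2 scale.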
